A study of Mus musculus with 8 samples.

Results

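Gata1 and Gata2, 2 of the 12 genes measured by quantitative RT-PCR in this series, were followed in all 9 preparations of lineage-negative mouse bone marrow. They were chosen by name, as the rows of the raw threshold cycle table that carry either gene, and their measured values played no part in the choice. The other 10 genes are 9 further targets and the reference Gapdh, a glycolytic enzyme gene. The 9 preparations fall into 3 groups of 3. The first was Gfi1-/-;Id2+/-, without Gfi1 and with only 1 intact copy of Id2, the second was Gfi1-/-, and the last was wild type (WT), listed as Gfi1+/+ controls in the deposited sample sheet. That sheet states no Id2 genotype for the Gfi1-/- and WT preparations. The mice were on a C57/Bl6 background, no treatment, Cre or promoter is named for any genotype, and the labels used give neither age nor sex. Cells bearing CD11b, Gr1, B220, CD8, CD4, Ter119 or IL-7R had been depleted, and none of these markers is among the 12 genes, so the fraction could not be checked against them. Whether the preparations of a genotype came from separate animals is not stated, so the p-values measure the spread between these preparations. In addition, 8 arrays of whole marrow, 4 of each mutant genotype, list probe sets by number, and Gata1 and Gata2 were not read from them.

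GATA1 and GATA2 are zinc-finger transcription factors that bind the same short DNA motif. GATA2 acts in haematopoietic stem and progenitor cells, and GATA1 drives erythroid and megakaryocytic maturation. During erythroid differentiation GATA1 takes the place of GATA2 at shared sites, the Gata2 gene among them, so that Gata2 transcript declines while Gata1 transcript increases. GFI1 is a transcriptional repressor of stem and myeloid cells, and ID2 is an inhibitor that pairs with E proteins and blocks their DNA binding. The balance of Gata2 to Gata1 transcript is therefore a common readout of how far progenitors have moved towards the erythroid lineage.

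The DNA before the annotated start sites of the 2 genes is shown because both factors and GFI1 act through short sites of this kind. In RefSeq (GRCm38.p6), Gata1 lies on chromosome X from 7959260 to 7976663 and Gata2 on chromosome 6 from 88193891 to 88207032. The table of promoters holds 1 start for Gata1 and 2 for Gata2. The Gata1 start and the second Gata2 start lie inside the annotated spans of the genes, and the DNA before the outer 5′ end of Gata1 is not shown here. The 250 bases before each start are printed 5′ to 3′ on the gene's strand, and capitals mark GATA or its reverse complement TATC, and AATC, the core of the GFI1 site, or its reverse complement GATT.
Gata1, chrX:7967911-7968160, minus strand: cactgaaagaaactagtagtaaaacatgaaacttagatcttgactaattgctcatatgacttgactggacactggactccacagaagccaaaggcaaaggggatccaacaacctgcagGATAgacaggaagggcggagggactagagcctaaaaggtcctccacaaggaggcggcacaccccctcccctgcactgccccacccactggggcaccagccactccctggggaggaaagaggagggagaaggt
Gata2, chr6:88193641-88193890, plus strand: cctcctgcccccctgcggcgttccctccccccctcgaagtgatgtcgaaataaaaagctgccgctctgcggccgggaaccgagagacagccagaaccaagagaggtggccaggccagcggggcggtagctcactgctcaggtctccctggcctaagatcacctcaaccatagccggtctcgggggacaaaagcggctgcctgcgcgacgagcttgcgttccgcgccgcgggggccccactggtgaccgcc
Gata2, chr6:88198414-88198663, plus strand: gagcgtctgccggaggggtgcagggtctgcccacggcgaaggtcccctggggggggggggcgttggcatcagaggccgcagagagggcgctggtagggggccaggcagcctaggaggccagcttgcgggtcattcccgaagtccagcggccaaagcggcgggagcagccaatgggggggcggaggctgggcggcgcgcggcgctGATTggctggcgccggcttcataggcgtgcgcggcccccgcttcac
The Gata1 window held 1 GATA match and 0 AATC matches. The first Gata2 window held 0 of either, and the second held 0 GATA matches and 1 AATC match. Such matches are common: of 32851 windows of 250 bases in the same table, 53.6% held GATA and 69.0% held AATC on either strand. The Gata2 windows were richer in G and C, at 67.2% and 74%, than the Gata1 window, at 54%.

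Gata2 transcript was detected earlier than Gata1 transcript in every preparation. The measure is the threshold cycle (Ct), the cycle at which the signal crosses a threshold, so that a lower value means more transcript, and 1 cycle is taken as a factor of 2. Each value is the mean of 3 wells. Gata1 Ct was 23.33, 20.90 and 22.03 in Gfi1-/-;Id2+/- preparations 1 to 3, 20.97, 23.20 and 20.93 in Gfi1-/- preparations, and 23.10, 22.27 and 25 in WT preparations. Gata2 Ct was 21.13, 19.10 and 19.87 in Gfi1-/-;Id2+/-, 19.13, 20.30 and 19.43 in Gfi1-/-, and 21.03, 19.70 and 23.03 in WT preparations. The order held for single wells as well: the lowest of the 3 Gata1 wells exceeded the highest of the 3 Gata2 wells in 9 of 9 preparations, by 1.1 to 2.5 cycles. With the 12 genes ordered by Ct from the lowest, Gata2 took place 2 or 3 and Gata1 places 6 to 8. The Ct of different assays also depends on how well each assay amplifies, which the sources do not state, so the gap between the genes is not a ratio of molecules. Its change between preparations is a change of ratio only if both assays amplify alike, which was not tested.

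**Figure D1:**
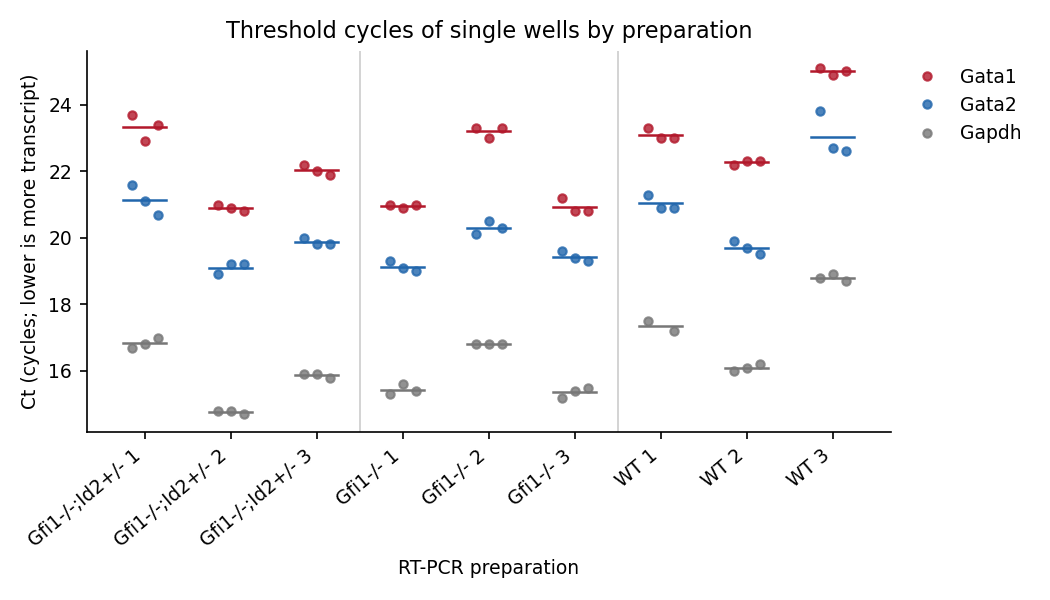
Threshold cycles of single wells (points; y axis, cycles) and their mean (line) for Gata1, Gata2 and Gapdh in the 9 preparations (x axis). Gata2 wells lie below Gata1 wells in all 9 preparations, and WT 3 has the highest Ct of all 3 genes.

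The wells of Gata2 were less even than those of Gata1. The pooled SD between wells of a preparation was 0.311 cycles for Gata2, 0.191 cycles for Gata1 and 0.118 cycles for Gapdh. The widest Gata2 set was WT 3, with wells at 23.8, 22.7 and 22.6 cycles. The widest Gata1 set was Gfi1-/-;Id2+/- 1, with wells at 23.7, 22.9 and 23.4 cycles. Of 324 wells of all genes, 1 was undetermined, a Gapdh well of WT 1, and the mean of the other 2 wells was used.

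Gapdh Ct differed between preparations by more than the wells did. It was 16.83, 14.77 and 15.87 in Gfi1-/-;Id2+/-, 15.43, 16.80 and 15.37 in Gfi1-/-, and 17.35, 16.10 and 18.80 in WT preparations. The mean was 15.82 ± 1.03 cycles (SD, n = 3) in Gfi1-/-;Id2+/-, 15.87 ± 0.81 in Gfi1-/- and 17.42 ± 1.35 in WT preparations, with p = 0.193 in an exact permutation test of the preparations over 3 genotypes. The 9 targets other than Gata1 and Gata2 had a mean Ct of 22.12, 21.79 and 23.39 in the same order of genotypes. Levels are therefore given as Gapdh Ct minus target Ct, on a log2 scale, so that a higher level means more transcript.

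Neither Gata1 nor Gata2 passed the test in any of the 3 comparisons of genotypes. Gata1 levels were -6.50, -6.13 and -6.17 in Gfi1-/-;Id2+/- preparations, -5.53, -6.40 and -5.57 in Gfi1-/- preparations, and -5.75, -6.17 and -6.20 in WT preparations. Gfi1-/- preparations 1 and 3 held the 2 highest levels of the 9, and Gfi1-/- preparation 2 the second lowest, so that all 3 genotypes overlapped. Gata2 levels were -4.30, -4.33 and -4.00 in Gfi1-/-;Id2+/- preparations, -3.70, -3.50 and -4.07 in Gfi1-/- preparations, and -3.68, -3.60 and -4.23 in WT preparations. For Gata2 the highest level was that of Gfi1-/- preparation 2, the same preparation that was low for Gata1, and the genotypes again overlapped. As a share of Gapdh, the geometric mean of Gata1 was 1.30% in Gfi1-/-;Id2+/-, 1.75% in Gfi1-/- and 1.52% in WT preparations, and that of Gata2 was 5.40%, 7.40% and 6.99% in the same order.

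**Figure D2:**
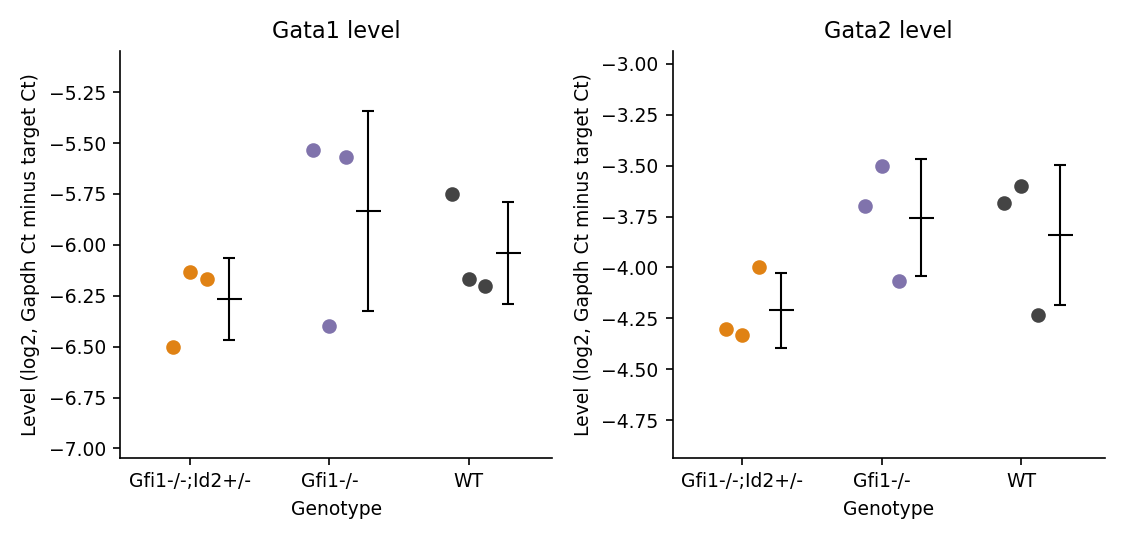
Levels of Gata1 (left) and Gata2 (right) by genotype (x axis), as Gapdh Ct minus target Ct on a log2 scale (y axis; both panels span the same number of units), with a point per preparation and the mean and SD beside it (n = 3). The genotypes overlap for both genes, and Gfi1-/- holds 1 Gata1 point, at -6.40, apart from its other 2.

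Relative to Gapdh, Gata1 and Gata2 means in Gfi1-/- preparations lay close to those of WT. The difference Gfi1-/- minus WT was 0.21 for Gata1 (SE 0.32, 95% interval -0.50 to 0.91) and 0.08 for Gata2 (SE 0.30, 95% interval -0.57 to 0.74). The adjusted p over 11 genes in limma, fitted to all 11 targets and 9 preparations, was 0.733 and 0.863, and the exact permutation test of 3 against 3 preparations gave p = 0.7 for each. In this comparison 0 of 11 genes (0%) passed, with 2 at an unadjusted limma p under 0.05, Id2 and Hbb-b1, and 0 in the exact test, which cannot go below 0.1. With the preparation number as a replicate block 1 gene passed, Hbb-b1, at a limma adjusted p of 0.0274. That fit gave all 11 genes the same SE, 0.40, where the SE of Hbb-b1 was 0.56 in the main fit. Preparations did not overlap for 4 of the 11 genes (36.4%), which include neither Gata1 nor Gata2. The intervals span 0.709 to 1.88 times the WT level for Gata1 and 0.673 to 1.67 times for Gata2, so larger changes would lie outside them.

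For Gfi1-/-;Id2+/- preparations, the difference Gfi1-/-;Id2+/- minus WT was -0.23 for Gata1 (SE 0.32, 95% interval -0.93 to 0.47) and -0.37 for Gata2 (SE 0.30, 95% interval -1.03 to 0.28). The limma adjusted p was 0.574 and 0.522, and the exact permutation p was 0.6 and 0.2. Here too 0 of 11 genes (0%) passed, with 1, Hbb-b1, at an unadjusted limma p under 0.05 and 0 in the exact test. With the replicate block 1 gene passed, again Hbb-b1, at a limma adjusted p of 0.00504. Its SE was again the one shared by all 11 genes, 0.40, against 0.56 in the main fit. Preparations did not overlap for 2 of 11 genes (18.2%), neither of them Gata1 or Gata2. The signs depended on the reference. WT preparations had the higher mean Ct of Gapdh and of the 9 other targets. Without a reference the differences were 1.37 for Gata1 and 1.22 for Gata2. Relative to Hbb-b1, whose own level differed by -1.53, they were 1.30 and 1.16. In these settings the limma adjusted p was 0.102 to 0.398. Relative to the mean of the 9 other targets the differences were 0.10 for Gata1 and -0.04 for Gata2, so Gata2 kept its sign there.

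Between the 2 mutant genotypes both genes had the lower mean in Gfi1-/-;Id2+/- preparations. The difference Gfi1-/-;Id2+/- minus Gfi1-/- was -0.43 for Gata1 (SE 0.32, 95% interval -1.14 to 0.27) and -0.46 for Gata2 (SE 0.30, 95% interval -1.11 to 0.20), each with a limma adjusted p of 0.555. These are near the median of the 11 genes, -0.41, and 10 of the 11 genes had the lower mean in Gfi1-/-;Id2+/-. In this comparison 1 of 11 genes (9.09%) passed, Id2 itself, at -1.57 with a limma adjusted p of 0.0197, and 2 of 11 (18.2%) did not overlap, Id2 and Gfi1b. Relative to the mean of the other 9 targets the differences were -0.06 for Gata1 and -0.08 for Gata2.

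The Gata1 value in this comparison depended on Gfi1-/- preparation 2. Without it Gata1 differed by -0.72 with a limma adjusted p of 0.0416, and 5 of the 11 genes passed, namely Gata1, Epor, Gfi1b, Id2 and Klf1. Without it Gata1 differed by 0.49 between Gfi1-/- and WT preparations, with a limma adjusted p of 0.137. Leaving out any other single preparation gave no pass of Gata1 or Gata2 in the 3 comparisons. Without Gfi1-/-;Id2+/- preparation 1 or 2, or without Gfi1-/- preparation 3, the count was 0 of 11, as Id2 no longer passed. Gfi1-/- preparation 2 had the lowest level of the 9 for Klf1, at -7.27, Epor, at -8.40, Cdk1, at -6.43, and Tfrc, at -5.47. Its Hbb-b1 level, at -5.33, was the second lowest of the 9.

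Across the 3 genotypes together, where the smallest p of the exact permutation test is 0.00357, Gata1 gave p = 0.389 (0.535 adjusted over 11 genes) and Gata2 p = 0.207 (0.326 adjusted). Of the 11 genes, 0 (0%) passed after adjustment and 2 (18.2%) had p under 0.05 before it, Id2 at 0.0179 and Gfi1b at 0.0214.

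**Figure D3:**
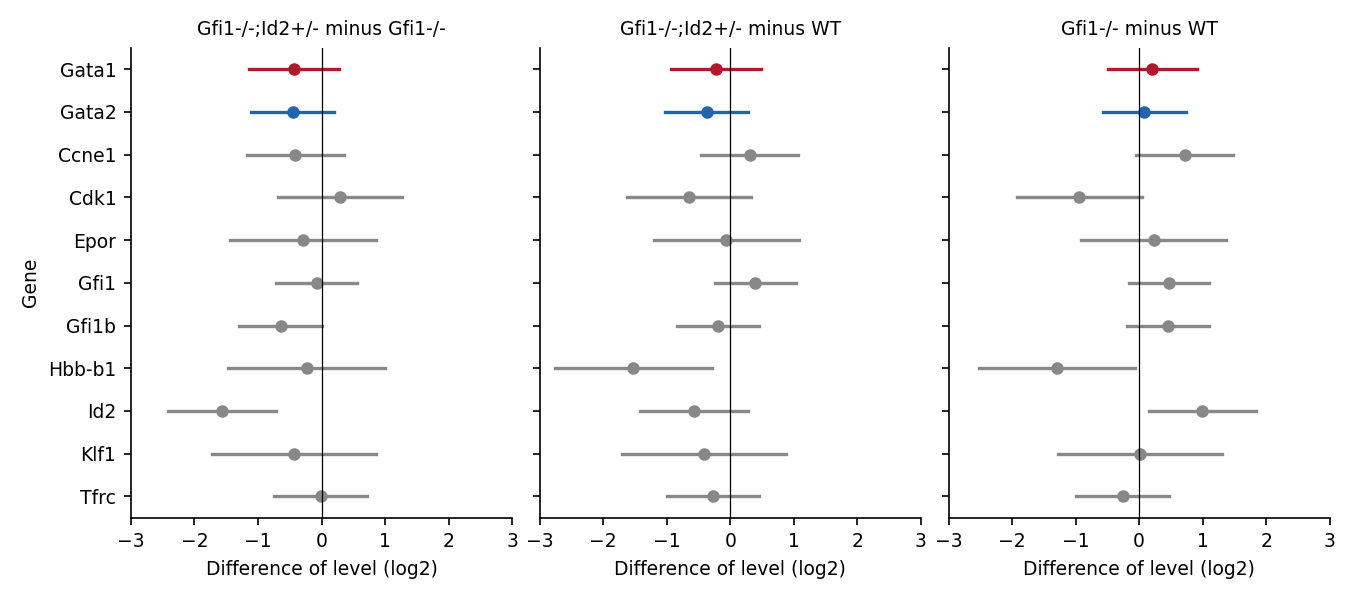
Differences of level between genotypes (x axis, log2) with limma's 95% interval (line) for Gata1, Gata2 and the other 9 targets (rows), in 3 panels. The intervals of Gata1 and Gata2 include 0 in all 3 panels.

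The balance of the 2 genes did not differ between genotypes by more than the spread between preparations. It is Gata1 Ct minus Gata2 Ct, read as the log2 of Gata2 over Gata1 if both assays amplify alike, and needs no reference gene. It was 2.20, 1.80 and 2.17 in Gfi1-/-;Id2+/- preparations, 1.83, 2.90 and 1.5 in Gfi1-/- preparations, and 2.07, 2.57 and 1.97 in WT preparations. Gfi1-/- preparations held both the highest and the lowest value of the 9, and the other 2 genotypes lay between them. The mean was 2.06 ± 0.22 (SD, n = 3) in Gfi1-/-;Id2+/-, 2.08 ± 0.73 in Gfi1-/- and 2.20 ± 0.32 in WT preparations.

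The difference of the balance was -0.12 for Gfi1-/- minus WT (95% interval -1.08 to 0.83, from the spread pooled over 3 genotypes). It was -0.14 for Gfi1-/-;Id2+/- minus WT (-1.10 to 0.81) and -0.02 for Gfi1-/-;Id2+/- minus Gfi1-/- (-0.98 to 0.93). The exact permutation p was 0.8, 0.6 and 0.9, each 0.9 when adjusted over the 3 pairs of genotypes, and the test over the 3 genotypes together gave p = 0.925. As ratios the 3 intervals run from 0.473 to 1.78, from 0.466 to 1.76 and from 0.507 to 1.91, so a ratio 2 times as high lies outside all 3, while a ratio of 0.5 lies inside those against WT. Without Gfi1-/- preparation 2 the balance was 0.53 lower in Gfi1-/- than in WT preparations (difference -0.53), and Gfi1-/-;Id2+/- minus Gfi1-/- was 0.39, with exact permutation p of 0.2 and 0.3, where 2 preparations stood against 3.

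**Figure D4:**
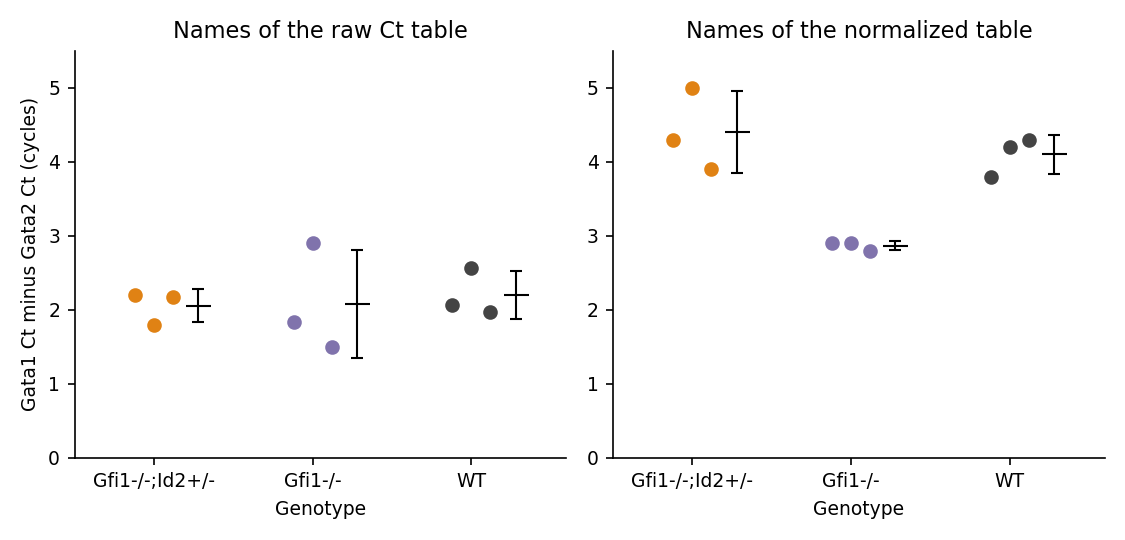
Gata1 Ct minus Gata2 Ct (y axis, cycles) by genotype (x axis) with genes named as in the raw Ct data (left) and under those of the authors' normalized table (right), with a point per preparation and the mean and SD (n = 3). On the left the genotypes overlap; on the right all 3 Gfi1-/- points, at 2.8 to 2.9, lie below those of the other genotypes.

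Set against all pairs of the 11 targets, the balance of Gata1 and Gata2 had small differences between genotypes. Preparations did not overlap for 24 of 55 pairs (43.6%) between Gfi1-/- and WT, for 13 (23.6%) between Gfi1-/-;Id2+/- and WT and for 8 (14.5%) between the mutants, and Gata1 with Gata2 was in none of these sets. Over the 3 genotypes 9 of 55 pairs (16.4%) had an unadjusted exact permutation p under 0.05. In absolute size, the difference of Gata1 with Gata2 between Gfi1-/- and WT, 0.12, was the fourth smallest of the 55, against a median of 0.63. That place rested on Gfi1-/- preparation 2, without which the difference was -0.53. The spread was not small everywhere: the SD of 0.73 among Gfi1-/- preparations equalled the median of the 55 pairs, and the SD of 0.32 among WT preparations was above their median of 0.23. Pairs share genes and are not independent, so these are descriptions.

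Of the 9 other targets, Gfi1b and Tfrc lay nearest to Gata1 over the 9 preparations, and Gfi1 and Gfi1b nearest to Gata2. Nearness was the root mean square distance between levels centred on each gene's own mean. A small spread of both genes also makes this distance small, so it does not measure a shared pattern alone. Gfi1b, a repressor of erythroid and megakaryocytic cells, lay 0.203 from Gata1, and Tfrc, the transferrin receptor, 0.281. Gfi1 lay 0.395 from Gata2 and Gfi1b 0.398. Gata1 and Gata2 were 0.396 apart, and Hbb-b1, a globin gene, was the farthest from each, at 0.896 from Gata1 and 0.952 from Gata2. All these levels share the same Gapdh wells.

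Genes of the erythroid programme were compared beside Gata1 and Gata2. Of Klf1, Epor, Hbb-b1, Gfi1b and Tfrc, 0 of 5 passed in any comparison in the main fit. For Gfi1-/- minus WT 3 had the higher mean and 2 the lower (8 and 3 of all 11 genes), with a median difference of 0.02 against 0.21 over all 11 genes. For Gfi1-/-;Id2+/- minus WT all 5 had the lower mean relative to Gapdh (9 of all 11 genes), with a median of -0.27 against -0.27 over all 11. These signs went with the reference. Without one all 5 had the higher mean, from 0.07 for Hbb-b1 to 1.53 for Epor. Relative to the 9 other targets Epor, Gfi1b and Tfrc did, at 0.27, 0.14 and 0.06. That reference is the mean of the targets other than Gata1 and Gata2, so it includes these 5 genes. For Gfi1-/-;Id2+/- minus Gfi1-/- all 5 had the lower mean relative to Gapdh (10 of all 11), with a median of -0.29 against -0.41. Here Tfrc turned to 0.03 without a reference, and relative to the 9 other targets Epor, Hbb-b1 and Tfrc turned to 0.09, 0.14 and 0.36. For Gfi1-/- minus WT all 5 had the higher mean without a reference, and Klf1 turned to -0.03 relative to the 9 other targets. Relative to Gapdh, Klf1, an activator of adult globin genes, differed by 0.02, -0.42 and -0.43 for Gfi1-/- minus WT, Gfi1-/-;Id2+/- minus WT and Gfi1-/-;Id2+/- minus Gfi1-/-, and Epor, the erythropoietin receptor, by 0.23, -0.06 and -0.29. Gfi1b differed by 0.45, -0.19 and -0.64, and Tfrc by -0.26, -0.27 and -0.01. Hbb-b1 levels were -4.13, -5.77 and -3.97 in Gfi1-/-;Id2+/-, -3.57, -5.33 and -4.27 in Gfi1-/- and -2.58, -3.70 and -3.0 in WT preparations. Hbb-b1 differed by -1.29 for Gfi1-/- minus WT and by -1.53 for Gfi1-/-;Id2+/- minus WT, with limma adjusted p of 0.176 and 0.215. Both passed with the replicate block, whose SE of 0.40 was the same for all 11 genes, while Gata1 and Gata2 did not. For Gfi1-/-;Id2+/- minus WT Hbb-b1 also passed in a fit of those 2 genotypes (limma adjusted p = 0.0291). Of the single preparations left out, only Gfi1-/- preparation 2 gave a pass of Hbb-b1 there (limma adjusted p = 0.00299). For Gfi1-/- minus WT it also passed relative to the mean of the 9 other targets, which includes Hbb-b1 (limma adjusted p = 0.0325). Whether the share of erythroid cells bears on the Gata1 and Gata2 levels was not tested, and in RNA of a mixed fraction fewer cells of a type and less RNA per cell cannot be told apart.

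The genotypes are those of the labels. Gfi1 levels were -7.47, -7.13 and -6.70 in Gfi1-/-;Id2+/-, -7.07, -7.10 and -6.90 in Gfi1-/- and -7.35, -7.47 and -7.67 in WT preparations, so the mutants were not lower than WT. The sources do not place this assay inside or outside the deletion, so it cannot serve as a check of the genotype.

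All values above follow the naming in the raw Ct data, and the names Gata1 and Gata2 stand for other wells in the authors' normalized table. Which naming is right was not settled here, so the results for Gata1 and Gata2 hold only if the raw names do. In that table, headed as differences to Gapdh, the column named Gata1 lay within 0.1 cycles of the raw Id2 Ct minus the raw Hbb-b1 Ct in 9 of 9 preparations. The column named Gata2 matched the raw Tfrc wells in the same way. The wells that the raw table calls Gata1 and Gata2 were found in the columns named Hbb-b1 and Klf1, again in 9 of 9 preparations for each. By the raw names Gapdh was detected first in 9 of 9 preparations, at least 2.58 cycles ahead of the next gene. The balance from the 2 matched columns lay within 0.067 cycles of the raw balance in each preparation.

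Under its own names the authors' deposited table gave another picture. The column named Gata1 in the authors' deposited table of normalized values held 5.2, 3.9 and 4.8 for Gfi1-/-;Id2+/-, 4.2, 3.0 and 2.8 for Gfi1-/- and 5.8, 5.2 and 5.9 for WT preparations. In the column named Gata2, the authors' deposited table had 0.9, -1.1 and 0.9 for Gfi1-/-;Id2+/-, 1.3, 0.1 and 0.0 for Gfi1-/- and 2.0, 1.0 and 1.6 for WT preparations. Their difference, Gata1 minus Gata2 as named in the authors' deposited table, was 4.3, 5.0 and 3.9 in Gfi1-/-;Id2+/-, 2.9, 2.9 and 2.8 in Gfi1-/- and 3.8, 4.2 and 4.3 in WT preparations. By these names Gfi1-/- stood below both other genotypes with no overlap, and the exact permutation test over the 3 genotypes gave p = 0.0179, against 0.925 by the raw names.

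Read as target Ct minus reference Ct, as the deposited methods sheet defines them, the values named Gata1 in the authors' deposited table meant more transcript in Gfi1-/- than in WT preparations, by 2.30 on the log2 scale (limma adjusted p = 0.0111 over the 10 columns used). The authors' deposited table of fold changes ran the other way for the same name: Gata1 was at 36.5, 25.4 and 27.7 for Gfi1-/-;Id2+/-, 18.3, 7.9 and 6.9 for Gfi1-/- and 54.3, 36.4 and 58.8 for WT preparations. Under that name a higher normalized value went with a higher fold, save in Gfi1-/-;Id2+/- preparation 2 (3.9 and 25.4). The opposite direction thus went with how a higher value is read, though the folds did not follow the normalized values throughout. The column named Gata2 in the authors' deposited table of fold changes held 1.9, 2.2 and 1.9 for Gfi1-/-;Id2+/-, 1.5, 1.1 and 1.0 for Gfi1-/- and 3.9, 2.0 and 3.0 for WT preparations. Under the name Gata2 a normalized value of -1.1 had a fold of 2.2 in Gfi1-/-;Id2+/- preparation 2. In Gfi1-/- preparation 1 a normalized value of 1.3 had a fold of 1.5, below the 1.9 held at 0.9. Why these values depart was not tested. No direction for Gata1 or Gata2 was drawn from the named columns.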

How the data were processed

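The authors deposited raw threshold cycles (Ct), with 3 wells for each gene in each preparation. Per the methods sheet they come from 500 ng of RNA, TaqMan probes and 45 cycles. Differences to a reference gene, on a log2 scale, were deposited too, as was a table of fold changes, treated as a score because it holds negative folds. The 8 array columns, for which the submitters' processing notes list Partek 6.6, were not used.

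Determined wells were averaged, and a level is mean Gapdh Ct minus mean target Ct. Genotypes were compared with limma 3.58.1 (lmFit, eBayes, R 4.3.3), with two-sided p adjusted by Benjamini-Hochberg over 11 genes and called under 0.05, on all 9 preparations. Exact two-sided permutation tests used 20 assignments of 3 against 3, whose smallest p is 0.1, and all assignments to 3 genotypes. Permutations ran in Python 3.11.15 (numpy 2.4.6, pandas 2.3.3). Tests were checked on simulated data. The wild-type preparations match no array sample and were placed by the sample sheet. Members, lists and alternatives were chosen with earlier results of these data known. Named genes were the members, Gapdh, the 2 targets nearest to each member and the erythroid list; other genes were named after their values were seen, where a count turned on them.

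Preparation numbers were checked as pairs from deviations over 11 genes. Those of WT correlated with the same number at 0.173 to 0.596 in Gfi1-/-;Id2+/- and at 0.214 to 0.634 in Gfi1-/-, each above 0.1. Those of the 2 mutants correlated at 0.566, 0.114 and -0.505. Different numbers were not compared in this way, so pairing is not shown. The main tests therefore left the preparations unpaired, and the replicate block is given beside them as an alternative.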

Additional observations from a re-analysis of the deposited data

How the results depend on the processing

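With 3 preparations a genotype, the 95% intervals are wide. For Gfi1-/- minus WT they ran from -0.50 to 0.91 for Gata1 and from -0.57 to 0.74 for Gata2, relative to Gapdh. That of the balance ran from -1.08 to 0.83. Changes inside these intervals were not excluded. Leaving out each preparation gave ranges of -0.72 to -0.28 for Gata1 and -0.61 to -0.33 for Gata2 (Gfi1-/-;Id2+/- minus Gfi1-/-), 0.056 to 0.49 and -0.11 to 0.24 (Gfi1-/- minus WT), and -0.31 to -0.083 and -0.57 to -0.25 (Gfi1-/-;Id2+/- minus WT). Gata1 passed only without Gfi1-/- preparation 2 (-0.72). The balance ranged from -0.53 to 0.17 (Gfi1-/- minus WT), from -0.26 to 0.039 (Gfi1-/-;Id2+/- minus WT) and from -0.31 to 0.39 (Gfi1-/-;Id2+/- minus Gfi1-/-). Counts of genes that passed ranged from 0 to 3, 0 to 1 and 0 to 5 in the same order, the highest without Gfi1-/- preparation 2 and, between mutants, 0 without Gfi1-/-;Id2+/- 1 or 2 or Gfi1-/- 3. The sign of Gata2 (Gfi1-/- minus WT) turned without Gfi1-/- 2 or WT 3.

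For Gfi1-/-;Id2+/- minus WT, Gata1 turned to 1.37 without a reference, 1.30 relative to Hbb-b1 and 0.10 relative to the mean of 9 other targets, and Gata2 to 1.22 and 1.16 in the first 2 settings. Gapdh Ct, which differed by -1.59 cycles, enters that change by construction. So does the Hbb-b1 level, which differed by -1.53, where Hbb-b1 is the reference. For Gfi1-/- minus WT, Gata2 turned to -0.05 with the median of wells and to -0.044 without wells over 0.5 cycles from it, of which WT 3 held 1. Under the names of the authors' normalized table, which stand for other wells than the raw names, Gata1 became 2.30 (passing) for Gfi1-/- minus WT. For Gfi1-/-;Id2+/- minus WT Gata1 became 1.00 and Gata2 1.30, and between mutants Gata2 became 0.23. The balance became 0.30 (Gfi1-/-;Id2+/- minus WT) and 1.53 (between mutants). Its exact permutation p over 3 genotypes was 0.0179, a setting chosen after seeing the data.

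Counts for Gfi1-/- minus WT were 4 relative to Hbb-b1, 3 relative to the 9 other targets, 1 with the replicate block and 6 under the normalized table's names, in place of 0. For Gfi1-/-;Id2+/- minus WT they were 2, 0, 1 and 2, and 1 in a fit of those 2 genotypes. Between mutants the count of 1 became 0 without a reference, relative to Hbb-b1, in a fit of 2 genotypes, under the normalized table's names and in the exact permutation test, which cannot pass. The replicate block changed no call of Gata1, Gata2 or their balance, with limma adjusted p of 0.575 to 0.921 for the levels. In a paired sign-flip test the balance had p of 0.75, 1 and 1, where 0.25 is the smallest possible. Beyond the construction named for Gapdh and Hbb-b1, the cause was not tested.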
